A study of Mus musculus with 6 samples.

Results

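The genes described here encode the protein subunits of the mitochondrial ribosome and were taken as the rows of both deposited tables whose gene name starts with Mrpl or Mrps followed by a digit. They carried 84 of the 24127 N6-methyladenosine (m6A) peaks in the comparison of ClpP cKO with WT and 84 of the 23681 peaks in the comparison of ClpX cKO with WT. Each table held 62 such genes, of 13346 and 13094 genes in all, and 64 were found in either table. RefSeq lists 78 protein-coding genes under these names, 49 named for the large subunit and 29 for the small subunit, of which 41 and 23 had a peak.

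The series mapped m6A in male germ cells of mice at postnatal day 35 by m6A-seq, in which an antibody captures methylated RNA fragments (IP) and a second library is made from the RNA before capture (input). There were 3 genotypes, each with 1 IP and 1 input library: a ClpP knockout (ClpP cKO), a ClpX knockout (ClpX cKO) and a wild-type control (WT). Both knockouts were made with Stra8-Cre, a driver active in the male germ line, and the labels call the cells spermatocytes. The sources used here give neither the number of mice behind a library nor the way the cells were isolated. ClpX is the unfoldase and ClpP the protease of the ClpXP complex of the mitochondrial matrix, and the study asked how their loss bears on mitochondrial function in these cells. Each group had 1 library, so no value has a replicate error, no difference has a replicate check, and the depth is unknown.

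The mitochondrial ribosome is built in the matrix from ribosomal RNAs of the mitochondrial genome and from proteins that are all encoded in the nucleus, made in the cytosol and imported. It translates the few mitochondrially encoded subunits of the respiratory chain and ATP synthase. In mice, ClpXP has been linked to the assembly of this ribosome through turnover of Eral1, a chaperone of the small-subunit ribosomal RNA. m6A on an mRNA is typically enriched near the stop codon and in the 3′ part of the transcript, where reader proteins bind it and can alter decay or translation. The names follow older nomenclature: the mammalian proteins of Mrps18a and Mrps30 sit in the large subunit, and the protein of Mrps36 is now placed in the 2-oxoglutarate dehydrogenase complex.

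The tables hold 1 fold enrichment (read as IP over input, linear) and 1 log2 fold change between genotypes per peak, not a value per library. A positive log2 fold change is read as stronger m6A enrichment in the knockout. That reading rests on the order of the names in the tables, which put the knockout ahead of WT, and every direction turns round if the ratio runs the other way. A peak counts as called if its deposited adjusted p for the difference was under 0.05, a test that compares single libraries and not the conditions. Both comparisons share the WT libraries. The targeted genes do not settle the labels: Clpx had log2 fold changes of 0.38 (ClpP cKO) and 0.55 (ClpX cKO) and Clpp had 1.70 (ClpX cKO) in the authors' deposited table, none of them called. Of 20 markers of spermatocytes, spermatids and spermatogonia, 17 carried a peak in each table, while the spermatocyte markers Sycp3 and Hormad1 had none in the ClpX table, Dmc1 none in the ClpP table and Mael none in either. Of 11 markers of Leydig cells and of peritubular, endothelial and immune cells, 4 carried a peak in the ClpP table and 7 in the ClpX table. Of 6 Sertoli cell markers, 5 carried a peak in each table. Together, 9 of 17 somatic markers carried a peak in the ClpP table and 12 in the ClpX table. The tables give no expression level.

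Most mitoribosomal genes carried a single peak. The ClpP table had 45 genes with 1 peak, 14 with 2, 1 with 3 and 2 with 4, and the ClpX table had 44 with 1, 15 with 2, 2 with 3 and 1 with 4. Peaks of the 2 tables were paired 1 to 1 by their shared bases, which gave 75 pairs and left 9 peaks in each table unpaired. Unpaired does not always mean no overlap: 1 such ClpX peak each on Mrpl49 and Mrpl50 lay within a ClpP peak paired with another. Mrpl35 and Mrps16 had a peak in the ClpP table alone and Mrpl4 and Mrps33 in the ClpX table alone. For 14 genes no peak was listed in the tables used here: Mrpl1, Mrpl2, Mrpl21, Mrpl22, Mrpl23, Mrpl39, Mrpl42, Mrpl48, Mrps10, Mrps11, Mrps14, Mrps15, Mrps21 and Mrps36. Genes with and without a peak had RefSeq spans of similar order, with medians of 6747 bases (825 to 121712) and 9689 bases (3961 to 62523). The matching shares over all peaks and genes, unpaired, in 1 table alone or without a peak, were not computed. These counts are therefore not read as a trait of the members.

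The peaks lay mostly at the 3′ end of these short genes. Of the 81 mitoribosomal peaks that could be placed in each table, 51.9% (ClpP) and 53.1% (ClpX) ended within 500 bases of the 3′ end of the RefSeq gene span, against 21.4% and 20.2% of all placed peaks. The median span of the 11310 protein-coding genes with a peak was 25036 bases, against 6747 bases for the mitoribosomal genes. The part of gene length in the contrast with all peaks was not tested. Of placed peaks on cytosolic ribosomal protein genes, 68.8% (ClpP) and 63.6% (ClpX) ended within 500 bases of the 3′ end. Peaks that start within 500 bases of the gene start made up 13.6% (ClpP) and 18.5% (ClpX) of mitoribosomal peaks, against 12.1% and 14% of all peaks. A peak joined 2 or more exon blocks in 40.5% of cases in both tables, against 29.7% and 27.5% of all peaks. The median mitoribosomal peak was 370 bases long in the ClpP table and 330 bases in the ClpX table, against 301 and 300 bases over all peaks.

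**Figure D1:**
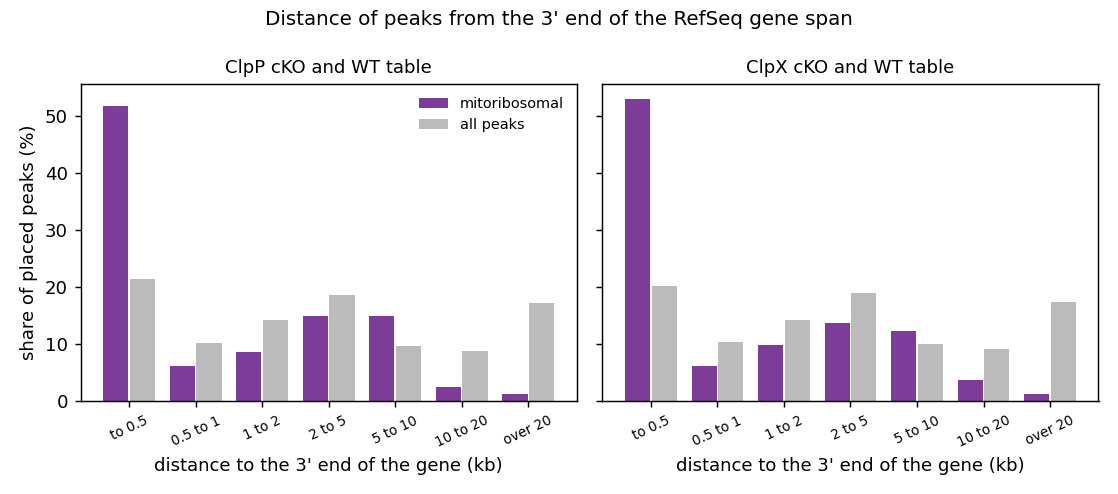
Share of placed peaks (y axis, percent) by distance from the peak's last base to the 3′ end of the RefSeq gene span (x axis, kilobases), for mitoribosomal peaks (purple, 81 in each table) and all placed peaks (grey), in the ClpP table (left) and the ClpX table (right). The nearest class, up to 0.5 kb and including peaks that run past the end, holds 51.9% and 53.1% of mitoribosomal peaks, against 21.4% and 20.2% of all peaks.

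Peak strength ranged widely among the members. Median fold enrichment was 6.37 (1.77 to 90.4) in the ClpP table and 6.29 (1.42 to 33.1) in the ClpX table, against 8.23 and 8.90 over all peaks. The strongest peaks were on Mrpl50 (90.4), Mrps9 (45.2) and Mrps25 (43.2) in the ClpP table, and on Mrps25 (33.1), Mrps9 (30.8) and Mrps18b (29.1) in the ClpX table, as the authors' deposited table gives them. None of these 6 peaks was called. The weakest were on Mrps22 (1.77), Mrpl13 (1.87) and Mrpl24 (1.98) in the ClpP table and on Mrpl51 (1.42), Mrpl4 (1.63) and Mrpl15 (1.91) in the ClpX table, of which Mrpl24, Mrpl51 and Mrpl4 were called. The Mrpl50 peak of 1072 bases in the ClpP table was listed as 2 neighbouring peaks in the ClpX table, with fold enrichments of 7.31 and 16.1.

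In ClpX cKO against WT, m6A peaks on mitoribosomal genes were more often higher than lower. Of 84 peaks 23 were called higher and 3 lower, or 27.4% and 3.57%, where 15.1% of all peaks in the table were called higher and 5.0% lower. The median log2 fold change was 0.48 (10th to 90th percentile -0.73 to 1.68), against 0.24 over all peaks, with 53 mitoribosomal peaks above 0, 29 below and 2 at 0. In ClpP cKO against WT the calls were even, 10 higher and 10 lower of 84 peaks, or 11.9% each way, against a background of 6.74% higher and 12.8% lower. The median there was 0.0 (-0.89 to 1.35), against -0.03 over all peaks. By size alone, at a log2 fold change of at least 1 either way, 25% of mitoribosomal peaks were higher and 5.95% lower in ClpX cKO, against 25.7% and 15.7% of all peaks, and 13.1% were higher and 8.33% lower in ClpP cKO, against 17.5% and 13.7%. The share of large increases was thus no higher among the members than in the tables. By gene, 20 mitoribosomal genes had a called peak in the ClpP comparison and 25 in the ClpX comparison, and 29 of the 64 had none in either. The share of all genes with a called peak was not computed, so these gene counts have no background here.

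The surplus of called increases in the ClpX comparison changed with the scaling of the table and with the error assigned to each peak. With errors pooled over peaks of like strength of evidence, an alternative added after the data were seen, 19 mitoribosomal peaks were higher and 9 lower (22.6% and 10.7%, background 16.5% and 10.5%). With the median of all peaks subtracted as well, 12 were higher and 14 lower (14.3% and 16.7%, background 11.5% and 14.6%). Increases thus made up 88.46%, 67.86% and 46.15% of the called mitoribosomal peaks in the 3 settings, beside 75.06%, 61.08% and 44.12% of all called peaks. In the ClpP comparison the corresponding shares were 50%, 33.33% and 40.91% of called mitoribosomal peaks, beside 34.43%, 37.19% and 40.04%. Whether the members as a group differ from other genes was not tested.

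**Figure D2:**
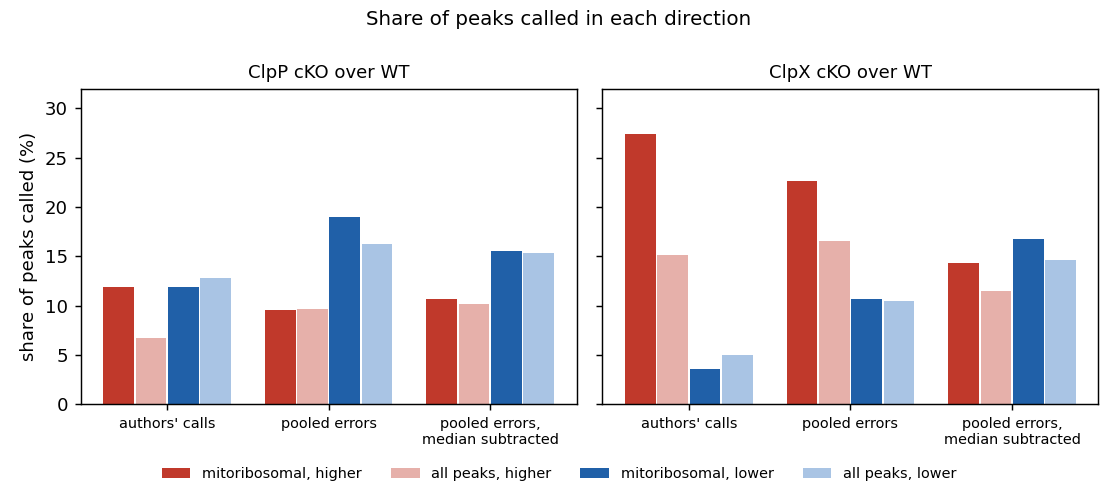
Share of peaks called higher (red) and lower (blue), in percent of all peaks of that kind, for mitoribosomal peaks (dark) and all peaks (light), under the authors' calls, calls with pooled errors, and pooled errors after subtracting the median of all peaks, for ClpP cKO (left) and ClpX cKO (right) against WT. Under the authors' calls 27.4% of mitoribosomal peaks were higher in ClpX cKO, against 15.1% of all peaks; with both changes the shares were 14.3% and 11.5%.

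The direction followed peak strength in both the members and the table. In ClpX cKO, mitoribosomal peaks with a fold enrichment under 5 had a median log2 fold change of 0.71, with 12 of 31 called higher and 0 lower, against a median of 0.72 and 29.4% higher and 1.48% lower among all such peaks. At a fold enrichment of 5 or more the median was 0.03, with 11 of 53 called higher and 3 lower, against a median of 0.02 and 9.01% higher and 6.50% lower among all such peaks. The members' medians therefore lay within 0.01 of the table's in both classes. Their shares called higher lay further apart, at 38.7% against 29.4% in the weaker class and 20.8% against 9.01% in the stronger. The shares called lower were 0.0% against 1.48% and 5.66% against 6.50%. In ClpP cKO the medians were 0.07 in the weaker and -0.15 in the stronger mitoribosomal peaks, against 0.12 and -0.12 over all peaks. Among the called peaks on markers of germ cells and of other cell types, most were higher in ClpX cKO as well. Over all peaks in that comparison 15.1% were called higher and 5.0% lower. The 23 peaks on 17 of 20 germ cell markers had a median of 0.84 (-3.75 to 2.1), with 12 called higher and 1 lower. The spermatocyte markers did not share this lean, with 1 peak higher and 1 lower of 7 and a median of 0.21. Spermatid markers had 6 higher and 0 lower of 8 peaks, and spermatogonium markers 5 and 0 of 8. The 23 peaks on 12 of 17 somatic markers had a median of 1.18 (-2.55 to 3.5), with 8 called higher and 1, on the Sertoli cell marker Sox9, lower. Within that list, the 14 peaks on 7 of 11 Leydig, peritubular, endothelial and immune markers had a median of 1.86, with 5 called higher and 0 lower. In ClpP cKO the germ cell markers had 7 peaks higher and 2 lower of 32, and the somatic markers 4 and 2 of 19. Over all peaks in that comparison 6.74% were called higher and 12.8% lower. Acta2, Pecam1, Cd68 and Cyp11a1 had no listed peak in either table. The part of peak strength or of any cell type in the mitoribosomal result was not tested.

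**Figure D3:**
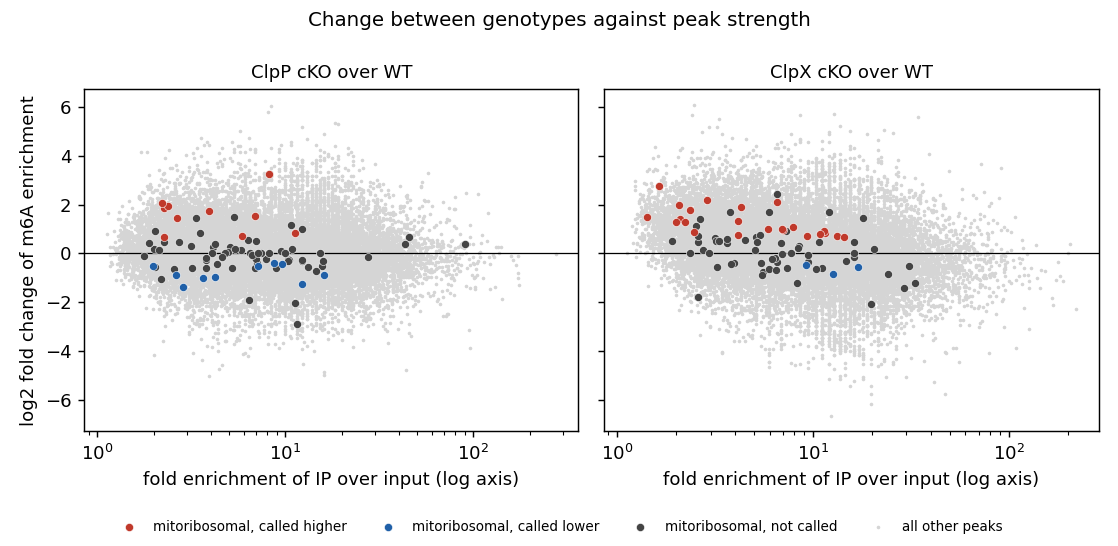
Log2 fold change of m6A enrichment, knockout over WT (y axis), against fold enrichment of IP over input (x axis, log scale), 1 point per peak, for ClpP cKO (left) and ClpX cKO (right); mitoribosomal peaks are red (called higher), blue (called lower) or dark grey (not called), other peaks light grey. In ClpX cKO the 31 mitoribosomal peaks under a fold enrichment of 5 have a median of 0.71 and the other 53 a median of 0.03.

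Genes named for the large subunit held 18 of the 23 increases in ClpX cKO. Of their 53 peaks 34.0% were called higher and 1.89% lower. Of the 31 peaks on genes named for the small subunit 16.1% were called higher and 6.45% lower. Over all peaks the shares were 15.1% and 5.0%. At a log2 fold change of at least 1 in size, 26.4% of large-subunit and 22.6% of small-subunit peaks were higher, against 25.7% of all peaks. By that rule 3.77% and 9.68% were lower, against 15.7%. The median log2 fold changes were 0.52 (large) and 0.13 (small), and the difference between the subunits was not tested. In ClpP cKO the large-subunit genes had 7 peaks called higher and 7 lower of 54, and the small-subunit genes 3 of each of 30. The background for these ClpP counts was 6.74% of all peaks called higher and 12.8% called lower.

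The stalk of the large subunit, which recruits translation factors, is formed by the proteins of Mrpl10 and Mrpl12 and rests on that of Mrpl11. The main Mrpl10 peak (chromosome 11, 97048195 to 97048614) was called higher in ClpX cKO, with a log2 fold change of 1.0 (adjusted p 0.000851, the authors' deposited table). The same site was called lower in ClpP cKO, at -0.89 (adjusted p 0.000145 in the authors' deposited table). Mrpl12 carried a peak at each end of the gene. Its 3′ peak (chromosome 11, 120488128 to 120488800) was called higher in ClpX cKO at 0.92 (adjusted p 5.89e-05) and stood at -0.31 (0.0537) in ClpP cKO, per the authors' deposited table. The peak at the Mrpl12 gene start was not called in either, at 0.17 in ClpX cKO and -1.91 in ClpP cKO in the authors' deposited table. The second Mrpl11 peak (chromosome 19, 4963844 to 4964937) was called higher in both, at 1.29 in ClpX cKO and 0.67 in ClpP cKO in the authors' deposited table. With errors pooled and the median of all peaks subtracted neither Mrpl11 call remained (1.05 in ClpX cKO and 0.70 in ClpP cKO), and the ClpP call also ended with pooled errors alone and at an adjusted p under 0.01.

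Among the large-subunit proteins with bacterial counterparts, the Mrpl4 peak near the gene's 3′ end (chromosome 9, 21008601 to 21008780) had the highest log2 fold change of any mitoribosomal peak in ClpX cKO, 2.76 (adjusted p 1.26e-24, the authors' deposited table). It was weak, with a fold enrichment of 1.63, and had no counterpart in the ClpP table. The counterpart of Mrpl4 in bacteria lines the exit tunnel. Called higher in ClpX cKO in the authors' deposited table were also Mrpl28 at 1.31, Mrpl36 at 1.28, Mrpl9 at 1.09, Mrpl15 at 0.82, Mrpl17 at 0.74 and Mrpl16 at 0.72. Of these sites in ClpP cKO, the authors' deposited table has Mrpl36 called higher at 1.43 and Mrpl16 called lower at -0.38, with Mrpl28 at -0.20, Mrpl9 at 0.12, Mrpl15 at -0.22 and Mrpl17 at -0.27 not called. Mrpl36 was thus called higher in both comparisons and Mrpl16 in opposite directions. The Mrpl36 call in ClpX cKO ended at an adjusted p under 0.01 and with pooled errors, also after subtracting the median of all peaks (1.04). Called in ClpP cKO alone were Mrpl27, whose bacterial counterpart reaches the peptidyl transferase centre, at -0.99, Mrpl24 at -0.54, Mrpl35 at 0.83 and the exit-site protein Mrpl47 at 1.93, in the authors' deposited table. The Mrpl47 peak (chromosome 3, 32727496 to 32727706) covered the gene's last bases and had no partner in the ClpX table. Mrpl3, a core protein of the catalytic region, had the lowest value of any member in both tables, -2.07 in ClpX cKO and -2.91 in ClpP cKO in the authors' deposited table, with adjusted p of 0.494 and 0.195, so neither was called.

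Proteins without a bacterial counterpart included the member with the smallest adjusted p. Mrpl54 (chromosome 10, 81264713 to 81265498) was called higher in ClpX cKO at 1.89 (adjusted p 2e-38, the authors' deposited table). The same 354 bases stood at 0.03 in ClpP cKO and were not called. Mrpl40 (chromosome 16, 18872167 to 18872615) was called higher in both, at 2.12 in ClpX cKO (adjusted p 4.27e-10) and 0.69 in ClpP cKO (0.00204) in the authors' deposited table. Its peak had the same borders in both tables and ended 149 bases from the gene's 3′ end. Mrpl43 at 0.79, Mrpl41 at 0.70 and Mrpl49 at 1.76 were also called higher in ClpX cKO in the authors' deposited table. The Mrpl43 peak shares bases with a peak of Twnk, the mitochondrial DNA helicase gene on the other strand, so its gene is uncertain. Outside this group, Mrpl58 encodes a peptidyl-tRNA hydrolase that releases stalled ribosomes. Its peak was called higher in ClpX cKO at 0.95 and stood at 0.0 in ClpP cKO in the authors' deposited table.

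Several other large-subunit genes had calls in ClpP cKO with no call at the same site in ClpX cKO. Mrpl46 was called lower at -0.88 in ClpP cKO and stood at -0.32 in ClpX cKO, in the authors' deposited table. Mrpl52 was called higher at 1.72 in ClpP cKO and stood at 0.71 in ClpX cKO in the authors' deposited table. Mrpl57 was the 1 large-subunit member called lower in both, at -0.47 in ClpX cKO and -0.44 in ClpP cKO in the authors' deposited table. Mrpl38 was called at different sites. In ClpP cKO a peak in the first part of the gene (chromosome 11, 116137938 to 116138358) was called at 3.26, the highest value of any member in that table. In ClpX cKO the peak at the 3′ end (116131847 to 116132057) was called at 1.42, and this 3′ site stood at 0.19 in ClpP cKO, in the authors' deposited table.

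**Figure D4:**
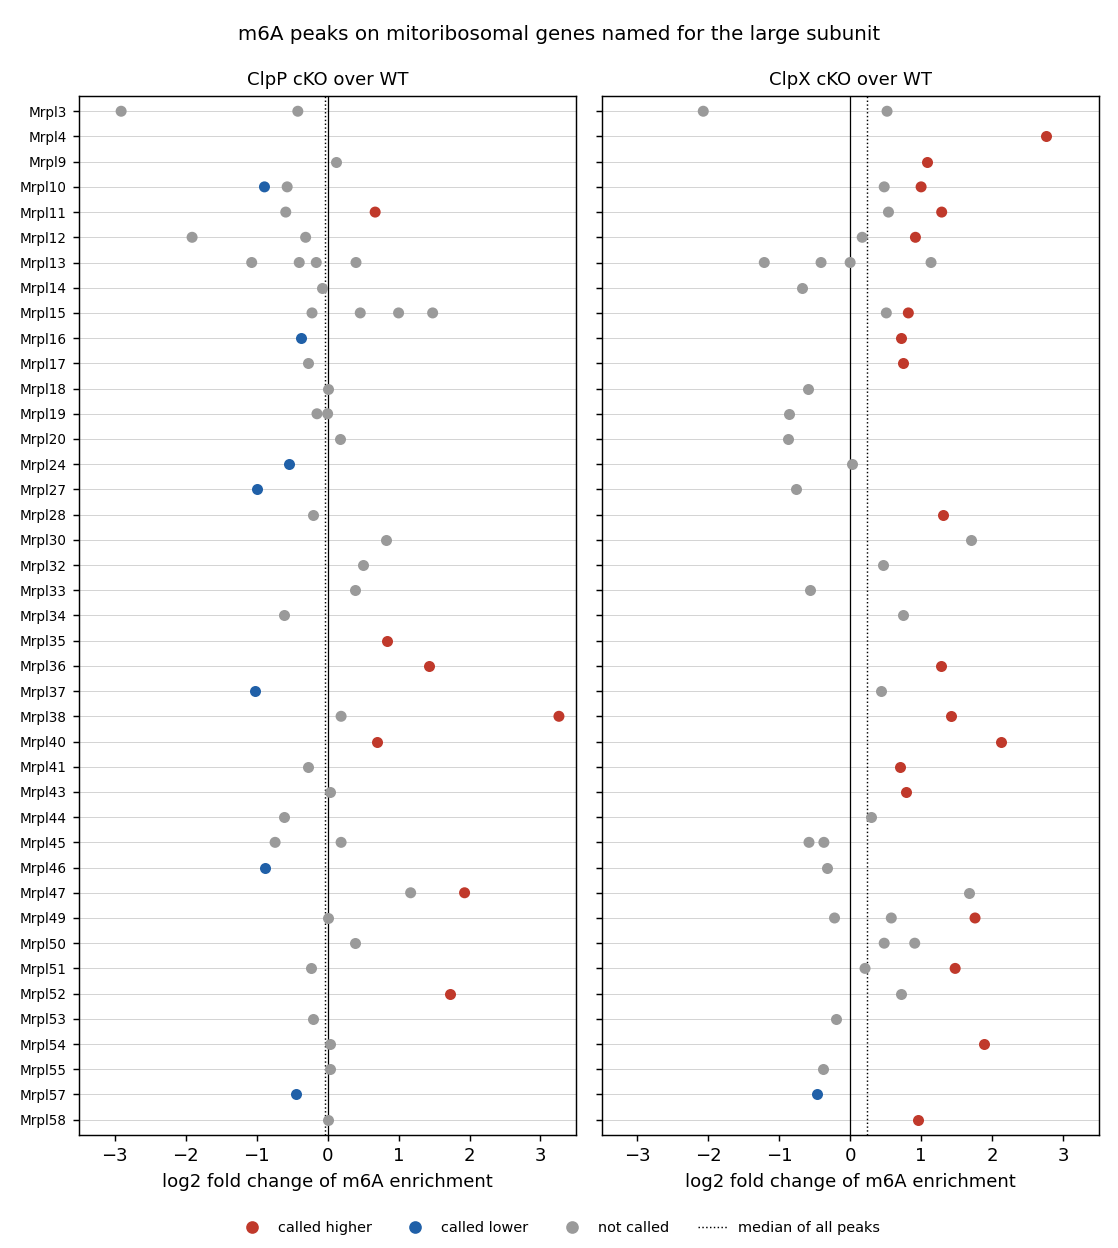
Log2 fold change of m6A enrichment (x axis), knockout over WT, for each peak (point) on the 41 genes named for the large subunit (rows), in ClpP cKO (left) and ClpX cKO (right); red and blue points were called higher and lower, grey points were not called, and the dotted line is the median of all peaks. In ClpX cKO 18 peaks are called higher and only Mrpl57 lower, while in ClpP cKO 7 are called each way.

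Fewer genes named for the small subunit were called. Mrps7, whose bacterial counterpart organises the head of the small subunit, was called lower in both comparisons over a peak of 948 bases in the ClpX table (chromosome 11, 115605995 to 115607622) and 888 bases in the ClpP table. The log2 fold changes in the authors' deposited table were -0.55 in ClpX cKO (adjusted p 0.0447) and -1.24 in ClpP cKO (7.41e-10). A second, weak Mrps7 peak at the gene end stood at -1.79 in ClpX cKO and -0.64 in ClpP cKO in the authors' deposited table, and was called in neither. All 4 Mrps7 values lay below 0.

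Mrps2 held neighbouring peaks with values on opposite sides of 0. The strong upstream peak (chromosome 2, 28469327 to 28470017, fold enrichment 12.7 in the ClpX table) was called lower in ClpX cKO at -0.84 in the authors' deposited table. The weak peak behind it (28470255 to 28470434, fold enrichment 2.07) had a log2 fold change of 1.98 in that table and was called. Another Mrps2 peak, at 0.64, was not called. By the authors' deposited table the same sites stood at -0.51, not called, and 1.88, called higher, in ClpP cKO. The weak Mrps2 peak lost its call in both comparisons with pooled errors, with or without subtracting the median of all peaks, while the strong peak kept its ClpX call there but lost it at an adjusted p under 0.01.

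The other small-subunit calls in ClpX cKO were all increases. In the authors' deposited table they were Mrps5 at 2.17 (adjusted p 0.0427), Mrps6 at 1.01, Mrps18a at 0.88 (its 3′ peak) and Mrps27, a pentatricopeptide repeat protein, at 0.69. In ClpP cKO the corresponding sites stood at 0.48, -0.22, 0.14 and -0.55 in the authors' deposited table, none of them called. Besides the peak at the start of Mrps18a, called in ClpP cKO alone were Mrps22 at 2.06 and Mrps35 at 1.52, both higher, and Mrps23 at -0.50, lower, in the authors' deposited table. The called Mrps22 peak lay at the 3′ end and had no partner in the ClpX table. Large values without a call were Mrps28 at 2.42 in ClpX cKO (adjusted p 0.173) and Mrps18b at -1.42 in ClpX cKO and -2.04 in ClpP cKO (0.541 and 0.442), in the authors' deposited table. The decoding-site protein Mrps12 was listed as 2 overlapping peaks of the same strength in each table, between -0.16 and 0.03 in ClpX cKO and at -0.30 and -0.29 in ClpP cKO, so it was counted as 2 peaks though their bases are largely shared.

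**Figure D5:**
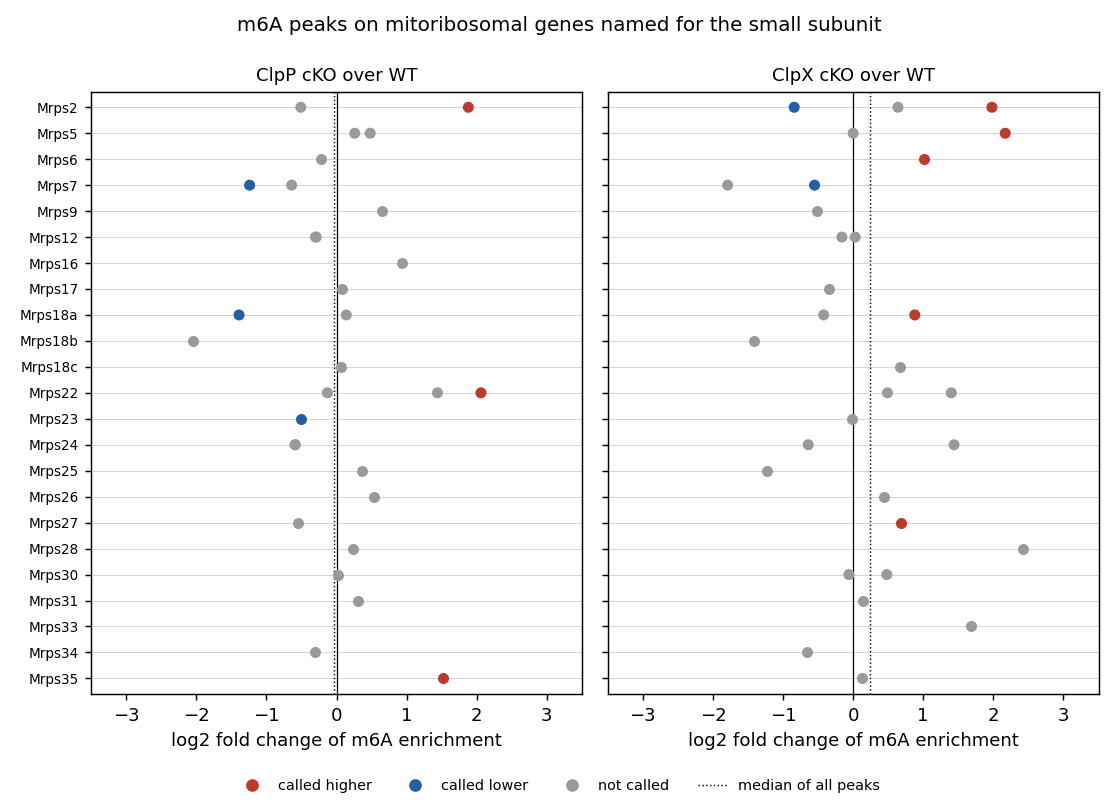
Log2 fold change of m6A enrichment (x axis), knockout over WT, for each peak (point) on the 23 genes named for the small subunit (rows), in ClpP cKO (left) and ClpX cKO (right); colours and the dotted line are as in the plot of the large subunit. Mrps7 is called lower on both sides, and Mrps2 has points on both sides of 0 in each panel.

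Other genes with several peaks had no call at any of them. Mrpl13 had 4 peaks in each table, between -1.21 and 1.14 in ClpX cKO and between -1.07 and 0.40 in ClpP cKO in the authors' deposited table, the ClpX extremes lying at opposite ends of the gene. Mrpl19, Mrpl45, Mrpl50, Mrps24 and Mrps30 likewise had 2 peaks in at least 1 table and none called. Mrpl15 had 4 peaks in the ClpP table, none called, and 2 in the ClpX table, of which the one called was given above. The outermost Mrpl10, Mrpl13 and Mrps7 peaks and 1 peak each of Mrpl19, Mrpl53, Mrps18c, Mrps24 and Mrps34 overlap another gene's peak, and none of these was called.

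A few peaks shared bases with a promoter window around an annotated start, and 4 of them were called. Their windows are shown because here the DNA around a start and the m6A peak meet. RefSeq promoter windows (GRCm38.p6, from 250 bases before to 50 after a start) were matched by symbol for 55 of the 64 genes. A peak shared bases with such a window in 6 genes of the ClpP table and 9 of the ClpX table. In ClpP cKO the peaks at the starts of Mrpl37 and Mrps18a and at an internal start of Mrpl24 were called lower, at -1.02 (adjusted p 2.51e-06), -1.39 (2.09e-05) and -0.54 (0.0447) in the authors' deposited table. In ClpX cKO the same peaks stood at 0.44, -0.42 and 0.03 and were not called. In ClpX cKO a weak peak before the start of Mrpl51 (fold enrichment 1.42) was called, with 1.48 (6.76e-06) in the authors' deposited table, while the peak inside that gene stood at 0.21. With pooled errors the calls of Mrpl24 and Mrpl51 ended, and those of Mrpl37 and Mrps18a did not. The 4 windows follow, written 5′ to 3′ on the gene's strand, with the bases covered by the called peak in capitals. The positions are chr4:107066817-107067116 (minus strand, Mrpl37), chr17:46110754-46111053 (plus, Mrps18a), chr3:87919294-87919593 (plus, Mrpl24) and chr6:125191950-125192249 (plus, Mrpl51).
Mrpl37: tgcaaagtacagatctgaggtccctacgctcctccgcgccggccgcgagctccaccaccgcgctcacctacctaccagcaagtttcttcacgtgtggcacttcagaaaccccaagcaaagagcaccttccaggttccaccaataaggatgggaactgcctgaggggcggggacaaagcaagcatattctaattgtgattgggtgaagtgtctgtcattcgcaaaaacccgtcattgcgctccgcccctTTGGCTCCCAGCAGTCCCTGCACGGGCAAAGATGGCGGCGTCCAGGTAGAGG
Mrps18a: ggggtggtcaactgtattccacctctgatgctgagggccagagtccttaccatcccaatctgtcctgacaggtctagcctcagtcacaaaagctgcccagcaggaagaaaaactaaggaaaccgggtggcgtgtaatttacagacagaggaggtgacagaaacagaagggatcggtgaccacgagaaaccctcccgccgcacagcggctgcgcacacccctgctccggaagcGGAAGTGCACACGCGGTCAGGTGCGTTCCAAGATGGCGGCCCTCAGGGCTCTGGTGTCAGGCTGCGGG
Mrpl24: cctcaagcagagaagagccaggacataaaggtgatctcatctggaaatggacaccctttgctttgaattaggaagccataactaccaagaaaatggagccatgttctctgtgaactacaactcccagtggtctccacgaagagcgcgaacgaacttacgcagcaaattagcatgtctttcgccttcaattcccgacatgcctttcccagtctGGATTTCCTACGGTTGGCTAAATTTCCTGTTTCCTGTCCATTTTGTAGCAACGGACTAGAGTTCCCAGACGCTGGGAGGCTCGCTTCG
Mrpl51: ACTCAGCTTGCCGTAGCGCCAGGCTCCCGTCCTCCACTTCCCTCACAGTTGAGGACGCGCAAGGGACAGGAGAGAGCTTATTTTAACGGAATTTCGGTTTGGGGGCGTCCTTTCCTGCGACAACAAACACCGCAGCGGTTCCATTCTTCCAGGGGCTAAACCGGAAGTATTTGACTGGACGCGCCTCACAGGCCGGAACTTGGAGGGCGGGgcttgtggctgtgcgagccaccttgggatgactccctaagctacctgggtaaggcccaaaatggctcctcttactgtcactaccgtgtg
The covered stretch was 52 bases for Mrpl37, 68 for Mrps18a, 88 for Mrpl24 and 211 for Mrpl51, and in the Mrpl51 window it lay wholly before the start. GGACT, a common form of the m6A motif, was searched on the gene's strand and was found once, in the Mrpl24 stretch. Over all RefSeq windows 5.76% had GGACT in their last 50 bases.

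The promoter windows of the members shared motifs that the choice of genes did not use. CCGGAA, the core bound by ETS factors such as GABP, was present on either strand in 56.4% of the 55 genes with a window, against 16.7% of all 27025 genes and 29.9% of the 9129 protein-coding genes with a peak. TGCGCA, a core of the NRF1 motif and its own reverse complement, was present in 34.5%, against 8.79% and 15.6%. Over windows, not genes, the shares were 57.1% and 35.7% of the members' windows, and 14.9% and 7.76% of all windows. GABP and NRF1 are known regulators of nuclear genes for mitochondrial proteins. The 2 motifs cannot share bases, and a window with the first on both strands was counted once. Mrps18a has CCGGAA from base 225 and TGCGCA from base 209 of its window, and Mrpl51 has CCGGAA from bases 161 and 193, both within the capitals, while Mrpl37 and Mrpl24 have neither. These matches are letters in a window and were not set against binding or against the m6A changes.

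Other genes of mitochondrial translation were counted from lists of their roles. Of the mitoribosomal proteins with other names, 5 had peaks, 6 in each table, with 4 increases and 0 decreases called in ClpX cKO and 1 each way in ClpP cKO. In the authors' deposited table Chchd1 stood at 1.68, Aurkaip1 at 1.49, Dap3 at 1.17 and Gadd45gip1 at 0.58 in ClpX cKO, and Chchd1 at 1.45 and Ptcd3 at -1.04 in ClpP cKO. The 2 Chchd1 calls lie at different sites. Genes of ribosome assembly and ribosomal RNA modification had 2 peaks called higher and 5 lower of 33, on 24 of 28 listed genes, in ClpX cKO, where 15.1% of all peaks were higher and 5.0% lower. They had 1 higher and 6 lower of 31 in ClpP cKO, where all peaks also leaned to lower calls (6.74% higher and 12.8% lower). The methyltransferase Mrm2 was called lower in both, at -1.38 in ClpX cKO and -1.28 in ClpP cKO, as was Fastkd2, at -0.79 and -0.83, in the authors' deposited table. The other calls in ClpX cKO there were Grsf1 at 1.70, Dhx30 at 0.83, Mterf4 at -1.28, Gtpbp10 at -2.15 and Mettl15 at -2.43. Calls in ClpP cKO, by the authors' deposited table, were Nsun4 at 1.40, Dhx30 at -0.58, Tfb1m at -0.87 and Mrm3 at -1.80. Noa1, a GTPase needed for the small subunit, was called lower in ClpP cKO alone at -1.02, and Eral1 was called in neither, at 0.93 in ClpX cKO (adjusted p 0.0575) and 0.17 in ClpP cKO, in the authors' deposited table.

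Translation factors and mRNA handling genes had 1 peak called each way in both comparisons, of 15 peaks on 13 of 18 listed genes in the ClpX table and 20 peaks on 16 in the ClpP table. The recycling factor Mrrf was called higher at different peaks: in ClpX cKO the 3′ peak (chromosome 2, 36189150 to 36189659) stood at 2.40, and in ClpP cKO a peak before it (36177140 to 36189180) stood at 2.20 in the authors' deposited table. The ClpP peak that covers most of the ClpX site stood at -0.29 and was not called. The elongation factor Gfm1 was called lower in ClpX cKO at -1.83 and the initiation factor Mtif3 in ClpP cKO at -0.55, in the authors' deposited table. Mitochondrial aminoacyl-tRNA synthetases and the related amidotransferase subunits had 2 higher and 1 lower of 29 peaks on 15 of 20 listed genes in ClpX cKO and 1 higher and 6 lower of 28 peaks on 16 in ClpP cKO, beside the same background of 15.1% and 5.0% in ClpX cKO and 6.74% and 12.8% in ClpP cKO. Fars2 was called higher in ClpX cKO at 0.89 and lower in ClpP cKO at -0.40 in the authors' deposited table. A strong Mars2 peak was called lower in both, at -1.18 in ClpX cKO and -0.81 in ClpP cKO, beside a weak one at 2.26 in ClpP cKO. Ears2 at -1.19, Tars2 at -1.43, Gatc at -1.60 and Nars2 at -1.89 were the other decreases in ClpP cKO in the authors' deposited table. The medians of the 4 lists were 0.88, -0.01, -0.27 and -0.18 in ClpX cKO, in the order given, and -0.25, -0.13, 0.07 and -0.34 in ClpP cKO. Cytosolic ribosomal protein genes, set beside them, had 19 peaks called higher and 3 lower of 57 in ClpX cKO (33.3% and 5.26%) and 8 higher and 10 lower of 49 in ClpP cKO (16.3% and 20.4%), with medians of 0.47 and 0.0. No difference between the 2 families was tested.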

How the data were processed

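The data were 2 deposited tables in which the authors compared each knockout with WT, from 4 libraries a table (IP and input of 2 genotypes, 1 library per group). Groups were read from the sample titles, and libraries were built from 1.3 ug of RNA, per the labels' protocols. Coordinates are on GRCm38 (mm10), the build named in the submitters' processing notes. Aligner, peak caller and library scaling: not given in the sources used here. Another scaling of the libraries could move all log2 fold changes of a table the same way. Per the file headers, each peak has a deposited p-value, scores on a log10 scale for the peak's p and adjusted p, a fold enrichment (a linear ratio), a log2 fold change between genotypes, and scores for the p and adjusted p of that difference. The deposited adjusted p-values of the difference lay within 0.05 on the log10 scale of a Benjamini-Hochberg adjustment over the table for 99.39% (ClpP) and 99.32% (ClpX) of peaks. All listed peaks had an adjusted peak p of at most 0.0427 (ClpP) and 0.0407 (ClpX), so sites without a listed peak were not analysed here.

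Calls were counted over all peaks of a table with Python 3.11.15 and pandas 2.3.3, and no p-value across replicates was computed. Depth per library is unknown. Coordinates are 1-based. Gene spans and promoter windows were taken from RefSeq (GRCm38.p6) by symbol, and peaks overlapping their gene's span were placed (22102 of 24127 and 21764 of 23681). Cytosolic ribosomal protein genes were those named Rpl, Rps, Rplp or Rpsa, without the Rps6k kinases. Named genes were every member with a called peak, members with several peaks, and the 3 at each end of fold enrichment and of log2 fold change per table. Alternatives were a stricter threshold, a new adjustment, limits on log2 fold change and fold enrichment, peaks free of overlaps, and 1 value per gene. Errors pooled as a running median over 201 peaks of like peak p were added after the data were seen and tested on simulated data. The simulated errors followed the peak p alone, as the pooling assumes. That test could therefore not show whether the pooling suits these data. The members and lists were chosen with earlier results of these data known.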

Additional observations from a re-analysis of the deposited data

Results flagged for a closer look

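Mrpl10 and Mrpl16 were each called in opposite directions in the 2 knockouts at the same site. For Mrpl10 the authors' deposited table gives 1.0 in ClpX cKO and -0.89 in ClpP cKO, at 390 shared bases, with fold enrichments of 5.86 and 2.63. For Mrpl16 it gives 0.72 in ClpX cKO and -0.38 in ClpP cKO, at 539 shared bases, with fold enrichments of 9.28 and 8.71. Each side is 1 knockout set of libraries against the same WT libraries, and the difference between the knockouts was not tested. With errors pooled and the median of all peaks subtracted, the Mrpl16 calls remained at 0.48 and -0.35, and so did the ClpX call of Mrpl10 at 0.76, while its ClpP value of -0.86 was no longer called.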

How the results depend on the processing

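No paired analysis was possible because each group had 1 library. A new Benjamini-Hochberg adjustment, a fold enrichment of at least 2, leaving out peaks that overlap another gene's, and counting genes by their peak of smallest p kept all 4 counts of calls within 1.5 times of the reported ones. At an adjusted p under 0.01, ClpP cKO had 6 peaks higher and 6 lower and ClpX cKO 1 lower. With a log2 fold change of at least 1 in size as well as the authors' call, 3 were lower in ClpP cKO, and in ClpX cKO 14 were higher and 0 lower. With pooled errors, 16 were lower in ClpP cKO and 9 in ClpX cKO; with the median of all peaks also subtracted, 12 were higher and 14 lower in ClpX cKO. These 2 settings were chosen after the data were seen. Of the 26 peaks called in ClpX cKO, 14 kept their call and direction under the last setting, and of the 20 in ClpP cKO also 14. The calls lost there were the named peaks of Mrpl10, Mrpl11, Mrpl24, Mrpl35, Mrps2 and Mrps23 in ClpP cKO, and of Mrpl11, Mrpl15, Mrpl17, Mrpl36, Mrpl38, Mrpl49, Mrpl51, Mrpl58, Mrps2 (weak peak), Mrps5, Mrps18a and Mrps27 in ClpX cKO. None of the 46 called peaks changed direction in the settings run for them; peaks that were not called were not followed, and in ClpX cKO those between 0 and 0.24 fall below 0 once the median of all peaks is subtracted, as for Mrpl24 at 0.03. The median log2 fold change in ClpX cKO, 0.48, was 0.24 with the median of all peaks subtracted, 0.46 at a fold enrichment of at least 2, 0.68 with 1 peak per gene and 0.51 with the mean per gene. In ClpP cKO it was 0.03 with that subtraction and 0.01 without overlapping peaks. The cause of these shifts was not tested beyond the settings themselves. The unknown depth and the single library per group limit every value.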

Other observations

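The tables also list peaks on 9 predicted genes that the tables describe by a mitoribosomal protein, 8 peaks in each table. In ClpX cKO 3 of the 8 were called higher and 0 lower, where 15.1% of all peaks were higher and 5.0% lower. In ClpP cKO 0 of the 8 were called, where 6.74% of all peaks were higher and 12.8% lower. The lowest of the authors' adjusted p-values for these ClpP peaks was 0.11. With 8 peaks a table, no difference between the knockouts is read from these counts. The called peaks in the authors' deposited table were Gm13328 at 1.98 (match Mrps5), Gm15770 at 1.43 (match Mrpl12) and Gm9063 at 1.36 (match Mrps26). The matching genes stood in ClpX cKO at 2.17 (Mrps5, 3′ peak, called), 0.92 (Mrpl12, 3′ peak, called) and 0.44 (Mrps26, not called) in the authors' deposited table. Reads of near-identical copies may be split between them in ways that the values do not show. That makes the values of these 3 members and of Mrpl18, Mrpl27, Mrpl32, Mrpl51 and Mrps18b uncertain. The peak of Gm43511 (match Mrps18c) shares bases with the Mrps18c peak on the same strand, so the gene of that Mrps18c peak is uncertain.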
